A study of Mus musculus with 4 samples.

Results

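Chaperone and heat shock protein genes were examined for peaks of DHX9, a helicase of double-stranded RNA, in neural progenitor cells of the mouse. The genes were taken by name: autosomal protein-coding genes whose symbol begins with Hspa, Hspb, Hspd, Hspe, Hsph, Hsp90, Dnaja, Dnajb, Dnajc or Cct and a digit, and Tcp1. This gave 84 of the 20665 autosomal protein-coding genes of the RefSeq annotation GRCm38.p6 (mm10). Of the 43106 peaks in the list, 149 had their midpoint in the span of 1 of these genes. A peak is a stretch of the genome, with a strand, that the authors' peak caller reported for DHX9.

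Peaks came from FLASH, in which ultraviolet light crosslinks protein to RNA and RNA pulled down by an antibody is read out by sequencing. The groups were a rabbit antibody to DHX9 (2 biological replicate libraries, A and B) and rabbit IgG (2 libraries, A and B). All 4 came from 1 line with no named treatment, progenitors derived from the male WT26 embryonic stem cells (C57BL/6x129sV) and kept in medium with EGF and FGF2. The authors' single list for DHX9 holds no value per library, no score per peak and no depth, and how the caller used the IgG libraries was not given in the labels. No replicate error, interval or test could therefore be given, and every comparison here is a description of 1 list.

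Molecular chaperones bind unfolded or partly folded proteins and keep them from aggregating. Hsp70 proteins do this in cycles of ATP hydrolysis, in which J-domain proteins (the Dnaja, Dnajb and Dnajc families) deliver clients and stimulate the ATPase, and nucleotide exchange factors reset it. Hsp90 acts later on signalling proteins, the chaperonin rings CCT (cytosol) and Hsp60 with Hsp10 (mitochondria) enclose whole proteins, and small heat shock proteins hold unfolded clients. Many of these genes are induced by heat shock factor 1, while the endoplasmic reticulum members are induced by the unfolded protein response.

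A peak is not a measure of expression: a gene without a peak may be silent, or expressed and not called. In a bulk culture, more bound RNA per cell and more cells with bound RNA cannot be told apart. Beside the label of the cells, peaks were present in the neural progenitor genes Nfia (339 peaks), Nfib (206), Slc1a3 (122), Ptprz1 (64), Fabp7 (4), Vim (1) and Sox9 (1). Sox2, Pax6, Nes and Hes1 had 0. None of 6 pluripotency genes had a peak, and of 4 autosomal neuron genes only Map2 did (46). The lists were chosen with earlier results of these data known, so these counts are not an independent check of the label. Gene length limits the comparison too. Pou5f1, Nanog, Dppa3 and Klf4 span under 10 kb, where 4.81% of all autosomal protein-coding genes had a peak. The other pluripotency genes, Zfp42 and Esrrb, span 11.9 and 160.5 kb. Nfia, Nfib and Ptprz1 span 540.8, 216.6 and 177.6 kb.

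At least 1 peak was present in 23 of the 84 chaperone genes (27.4%), and in 4008 of all 20665 autosomal protein-coding genes (19.4%). There were 10 or more peaks in 5 of the 84 (5.95%), against 1033 genes (5.00%) of the whole set. Among genes with a peak, the median number was 3 in the chaperone genes and 4 in the whole set, and the median density was 0.203 and 0.104 peaks per kb of span. These sets differ in length: 6 of the 23 span 40 kb or more, against 2039 of the 4008. Density was not compared at equal span. The 5 genes with 10 or more peaks were Dnajc1 (29), Dnajc7 (20), Hspa4 (19), Dnajc18 (15) and Dnaja2 (12), and together they held 95 of the 149 peaks (63.8%). None of them is near the top of the whole list: Dnajc1 ranked 280 by number of peaks, and the most in any autosomal protein-coding gene was 661.

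**Figure D1:**
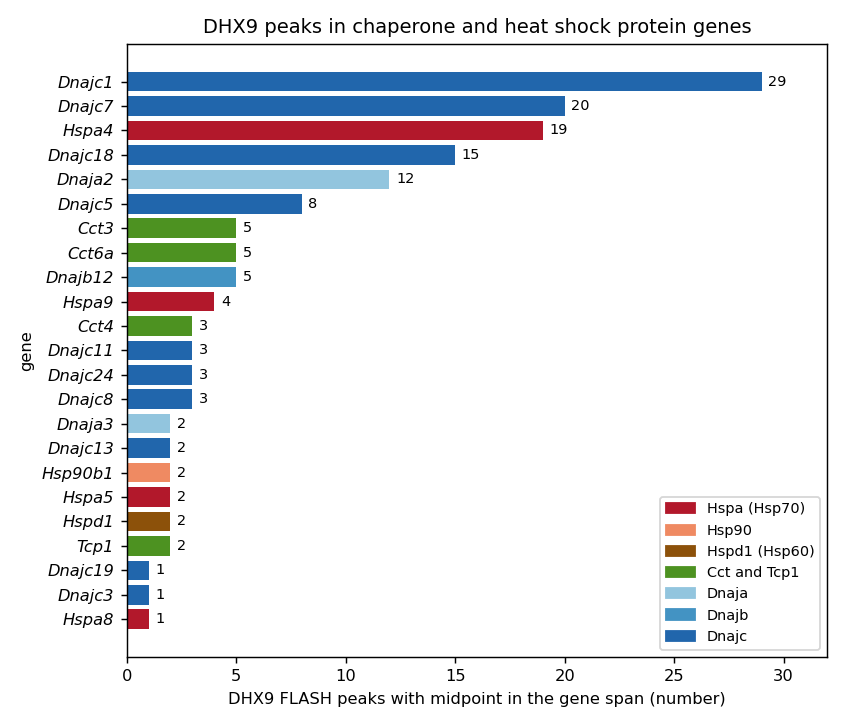
Number of DHX9 peaks (horizontal axis) in each of the 23 chaperone and heat shock protein genes with a peak, coloured by family. Dnajc1 had 29 peaks and 5 genes had 10 or more, while 3 genes had 1.

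Longer genes carried peaks more often. The chaperone genes had a median span of 17.0 kb, close to the 17.5 kb of all autosomal protein-coding genes. Those with a peak had a median span of 24.1 kb, and those without a peak 12.5 kb. Under 10 kb, 3 of 30 chaperone genes had a peak (10%), against 353 of 7342 genes of that length (4.81%). From 10 to 40 kb the share was 14 of 38 (36.8%), against 1616 of 7580 (21.3%). At 40 kb or more it was 6 of 16 (37.5%), against 2039 of 5743 (35.5%). In percentage points the gap was widest among genes of middle length and smallest among the longest. Expression was not measured and its part in these shares was not tested.

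**Figure D2:**
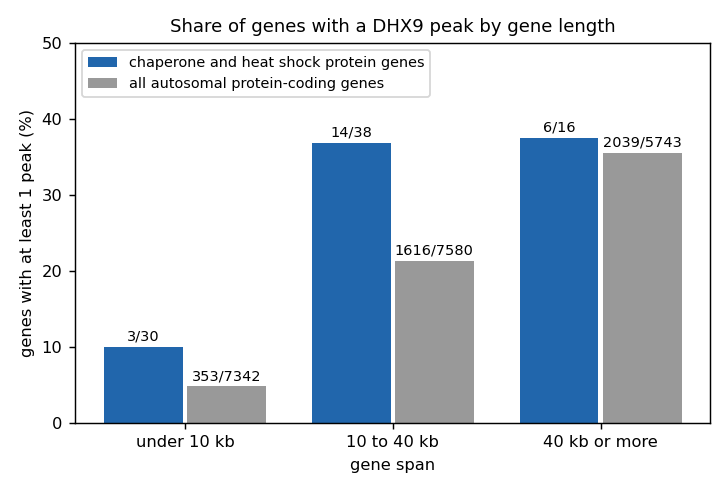
Share of genes with at least 1 peak (vertical axis, %) in 3 classes of gene span, for chaperone and heat shock protein genes (blue, left) and all autosomal protein-coding genes (grey, right). Numbers above the bars are genes with a peak over genes in the class, and the classes from 10 to 40 kb differ most, at 36.8% and 21.3%.

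J-domain protein genes, 45 of the 84, supplied most of the peaks, with 104 of the 149 (69.8%). Most of the 104 lay in Dnajc1 (29), Dnajc7 (20), Dnajc18 (15) and Dnaja2 (12). What share of the summed span of the 84 genes lies in J-domain genes was not computed. The 69.8% is therefore not read as a trait of the family. They were also longer, with a median span of 23.8 kb against 17 kb for all 84. A peak was present in 13 of the 45 (28.9%), close to the 27.4% of all 84 chaperone genes. Among all autosomal protein-coding genes the share was 19.4%. By family, a peak was present in 10 of 28 Dnajc genes (85 peaks in all), 2 of 4 Dnaja genes (14 peaks) and 1 of 13 Dnajb genes (5 peaks). Dnajb genes were also shorter, with a median span of 9.56 kb against 32.4 kb for Dnajc.

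Dnajc1 encodes a J-domain protein of the endoplasmic reticulum membrane. Its span (chromosome 2, 18205634 to 18394099, minus strand, 188.5 kb) held 29 peaks, all on the minus strand and in no other annotated gene, at 0.154 peaks per kb. The peaks fell in a few groups rather than evenly. Positions along genes are those of peak midpoints. Counting from the gene's start, 16 peaks lay between 5.95 and 24.7 kb, in groups of 2, 11 and 3 separated by more than 3 kb. Another 6 lay 178 to 180 kb from the start, a stretch of 2.04 kb (18213841 to 18215883) whose last midpoint is 8.27 kb before the gene's end. That stretch included 3 of the 5 peaks in this gene that were 300 bases or longer (343, 331 and 337 bases). Between these outer groups, 7 peaks were scattered over the middle of the gene, and the widest gap between neighbours was 59657 bases.

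Dnajc7 encodes a J-domain protein with tetratricopeptide repeats that binds both Hsp70 and Hsp90. Its 20 peaks (chromosome 11, 100582818 to 100620292, minus strand, 37.5 kb, 0.534 peaks per kb) formed a group at each end. Of these, 11 lay 2.06 to 7.34 kb from the start of the span, and 8 lay 3.07 to 6.41 kb before its end. Only 1 peak lay between these groups, 22.9 kb from the start. RefSeq gives this gene 2 start sites in the promoter table, at 100619627 and 100613352, and the next minus-strand peak began 1333 and 344 bases downstream of them.

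The 8 peaks near the end of Dnajc7 also lie in Cnp, the gene of a myelin enzyme, which overlaps Dnajc7 tail to tail over 9.06 kb. Cnp is annotated on the plus strand (chromosome 11, 100574909 to 100591875) and all 8 peaks in its span are on the minus strand, the strand of Dnajc7. Cnp itself thus had 0 peaks on its own strand. Within Dnajc7, the overlap held 0.883 peaks per kb and the remaining 28.4 kb held 0.422 per kb. Whether the overlap has a part in this difference was not tested.

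**Figure D3:**
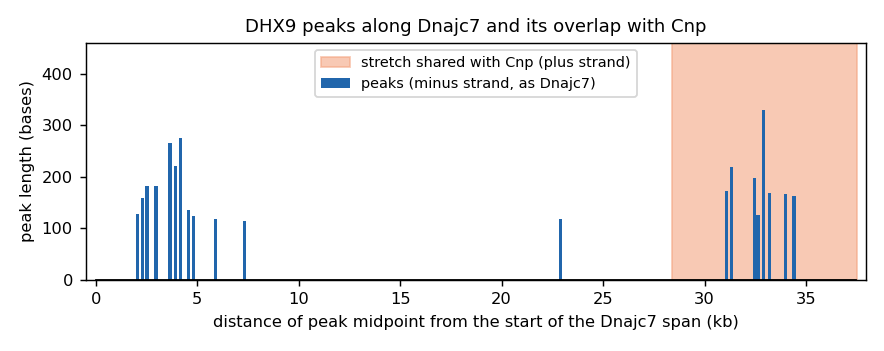
The 20 DHX9 peaks of Dnajc7, each drawn as a bar at the distance of its midpoint from the start of the gene span (horizontal axis, kb) with its length as height (vertical axis, bases); shading marks the 9.06 kb shared with Cnp, which is on the other strand. There are 11 peaks nearer the start, 8 in the shared stretch and 1 between.

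Dnaja2 encodes a cytosolic J-domain protein of the type closest to bacterial DnaJ. Its 12 peaks (chromosome 8, 85537633 to 85555361, minus strand, 17.7 kb) were the densest of the 5 genes, at 0.677 per kb. They formed 1 cluster of 5.04 kb (85540716 to 85545760), with midpoints 9.77 to 14.5 kb from the start, a median spacing of 272 bases and a widest gap of 1041 bases. The peak nearest the start began 9601 bases downstream of the start site. Peaks covered 9.99% of the gene's span, the largest share among the 84 genes.

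Dnajc18, another J-domain protein gene (35671103 to 35708418 on chromosome 18, 37.3 kb), had 15 minus-strand peaks at 0.402 per kb. They formed 3 groups of 4, 5 and 6 peaks, and, counted on the strand of the peaks, the last group lay 1.20 to 3.70 kb before the gene's end. Dnajc5, which encodes the cysteine string protein of synaptic vesicles, had 8 plus-strand peaks in groups of 3 and 5 (chromosome 2, 181518858 to 181552886). The promoter table used here gave no strand for either gene, so these positions rest on the strand of the peaks.

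The other J-domain genes had few peaks. Dnajb12, for a protein of the endoplasmic reticulum membrane, had 5 plus-strand peaks, 4 of them close together (59897512 to 59899270 on chromosome 10) with midpoints at most 1.59 kb before the gene's end. These peaks were long, with a median of 361 bases in the gene against 153 bases in the whole list. Dnajc8, whose product is associated with the spliceosome, had 3, as did Dnajc11, a mitochondrial membrane protein gene, and Dnajc24, which acts in diphthamide synthesis. Dnaja3, for a mitochondrial J-domain protein, had 2 and Dnajc13, for an endosomal one, also 2. Dnajc3, whose product inhibits the kinase PERK, had 1. Of the 32 J-domain genes with no peak, 18 were Dnajc, 12 Dnajb and 2 Dnaja genes, the last being Dnaja1 and Dnaja4.

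In the Hsp70 family, 4 of 13 genes had a peak (30.8%, beside 19.4% of all genes and 21.3% of genes of 10 to 40 kb), and these held 26 peaks. Hspa4 held 19 of them. Its product belongs to the Hsp110 branch of the family and serves as a nucleotide exchange factor for Hsp70. Hspa4 (chromosome 11, 53259814 to 53300479, minus strand, 40.7 kb) carried 0.467 peaks per kb, all on the minus strand and in no other gene. There were 13 peaks spread over the first 11.1 kb, while 5 lay 35.8 to 36.8 kb from the start, and 1 lay 0.554 kb before the end. The first began 72 bases downstream of the annotated start, and it was the only peak on the gene's own strand with its midpoint within 1 kb of the gene's start among the 148 such peaks in the chaperone genes.

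Hspa9, the mitochondrial Hsp70 gene, had 4 peaks in 1 cluster of 1.76 kb (chromosome 18, 34949271 to 34951034), with a median length of 329 bases. Hspa5, which encodes the Hsp70 of the endoplasmic reticulum (BiP), had 2 plus-strand peaks (chromosome 2, 34775932 to 34776457), with midpoints 482 and 166 bases before the gene's end. Both also lie in Rabepk, which is annotated on the minus strand, so they are on the strand of Hspa5. Hspa8, the constitutive cytosolic Hsp70, had 1 peak of 140 bases (chromosome 9, 40804709 to 40804848). It spans the whole of Snord14e (40804748 to 40804838), a small nucleolar RNA hosted by Hspa8. Hspa8 thus had 0 peaks outside that RNA. The 9 genes of the family with no peak were Hspa1a, Hspa1b, Hspa1l, Hspa2, Hspa4l, Hspa12a, Hspa12b, Hspa13 and Hspa14, which include the heat-inducible Hsp70 genes Hspa1a and Hspa1b.

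Of the Hsp90 genes, Hsp90b1, for the endoplasmic reticulum member Grp94, had 2 minus-strand peaks (chromosome 10, 86690841 to 86705444). The cytosolic Hsp90aa1 (5.36 kb) and Hsp90ab1 (5.48 kb) had 0. Hsph1, an Hsp110 gene of 19.7 kb, also had 0. Hspd1, the mitochondrial Hsp60 gene, had 2 minus-strand peaks 2.18 and 2.68 kb from its start (chromosome 1, 55085484 to 55086143), and Hspe1, the Hsp10 gene that lies beside it head to head, had 0.

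Among the chaperonin genes, 4 of 10 had a peak (40%, beside 19.4% of all genes and 21.3% of genes of 10 to 40 kb), with 15 peaks in all. Cct3 and Cct6a each had 5, Cct4 had 3 and Tcp1, the alpha subunit gene, had 2, all on the plus strand. Of the Cct6a peaks, 3 had midpoints at most 1.48 kb before its end (129844835 to 129846154 on chromosome 5), 1 lay 3.94 kb from its start, and 1 covered most of Snora15, a small nucleolar RNA within it (peak 129794567 to 129794687, Snora15 129794561 to 129794676). Both Tcp1 peaks (chromosome 17, 12917376 to 12917834) have their midpoints in the 1.46 kb that Tcp1 shares with Mrpl18, which is annotated on the minus strand. The other chaperonin genes, Cct2, Cct5, Cct6b, Cct7, Cct8 and Cct8l1, had none. Each CCT ring holds its subunits in equal number, but peak counts do not measure subunits. The 10 genes also differ in span, from 1.96 to 59.1 kb.

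None of the 10 genes named Hspb had a peak. Most encode small heat shock proteins, although the rule also takes Hspbp1, a cofactor of Hsp70, and Hspbap1. Of the 10, 6 span less than 10 kb, a class in which 4.81% of all genes had a peak. Another 3 span 10 to 40 kb and 1 is longer, classes in which 21.3% and 35.5% of all genes had a peak.

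Reads of near-identical copies are a limit here, because no source used here gives how reads with more than 1 match were treated. The promoter windows of Hspa1a and Hspa1b shared 296 of 300 bases, and both genes had 0 peaks. Those windows lie mostly before the start site, and transcript sequences were not compared. Of 18 pseudogenes named after chaperone genes, such as those of Hspd1 and Hspe1, none had a peak either. No share over all pseudogenes is given here, so these counts do not show how such reads were treated.

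The strand of the peaks was nearly uniform. Each of the 23 genes had all its peaks on a single strand, which is trivial for the 3 genes with 1 peak. RefSeq's promoter table gave a strand for 69 of the 84 genes, 17 of them with a peak, and in these 114 of 115 peaks (99.1%) were on the annotated strand. Over all autosomal protein-coding genes with a strand the share was 31585 of 32068 (98.5%). The exception was the single peak of Dnajc19, which encodes a subunit of the mitochondrial import motor. Dnajc19 is on the minus strand, and its plus-strand peak (chromosome 3, 34067709 to 34067847) lies where it overlaps Fxr1, an RNA-binding protein gene on the plus strand whose 14 peaks are all on the plus strand. By strand this peak belongs to Fxr1, and Dnajc19 had 0 on its own strand.

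Another annotated gene held the midpoint of 18 of the 149 peaks, in 8 chaperone genes, so 131 (87.9%) lay in a chaperone gene alone, against 93.9% of all peaks in autosomal protein-coding genes. For 14 of the 18 the other gene was on the opposite strand to the peak: Cnp (8), Rabepk (2), Mrpl18 (2) and the noncoding gene Gm46130 within Dnajc13 (2). One was on the strand of Fxr1. For the remaining 3, shared with Snord14e, Snora15 and the noncoding gene Gm46226 at Dnajb12, the promoter table gave no strand. In the 5 kb on either side of the 84 genes there were 11 peaks. These include the 2 peaks of Hspd1, which lie upstream of Hspe1 and are already among the 149. Only 1 of the 11 was on the strand of the chaperone gene it flanked. It lay 4154 bases downstream of Hspa1b in another annotated gene, 1110038B12Rik.

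Along the genes, peaks were about as common before the middle as after it. Of the 148 peaks on the gene's own strand, 73 lay in the first 50% of the span and 75 in the rest, with 25 in the first 10% and 25 in the last 10% (16.9% each). For the 114 with an annotated strand, 51.8% lay in the first 50% of the span, 21.9% in the first 10% and 16.7% in the last 10%. Over all autosomal protein-coding genes these shares were 62.3%, 14.1% and 5.57%. The 25 peaks of the last 10% came from 8 genes, with 6 each from Dnajc1 and Dnajc18, 4 from Dnajb12, 3 from Cct6a, 2 each from Dnajc7 and Hspa4, and 1 each from Hsp90b1 and Hspa5. The 25 of the first 10% came from 5 genes, and Dnajc1 (12), Hspa4 (6) and Dnajc7 (5) held most of them. Peaks of 1 gene are not independent, and no exon annotation was used.

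**Figure D4:**
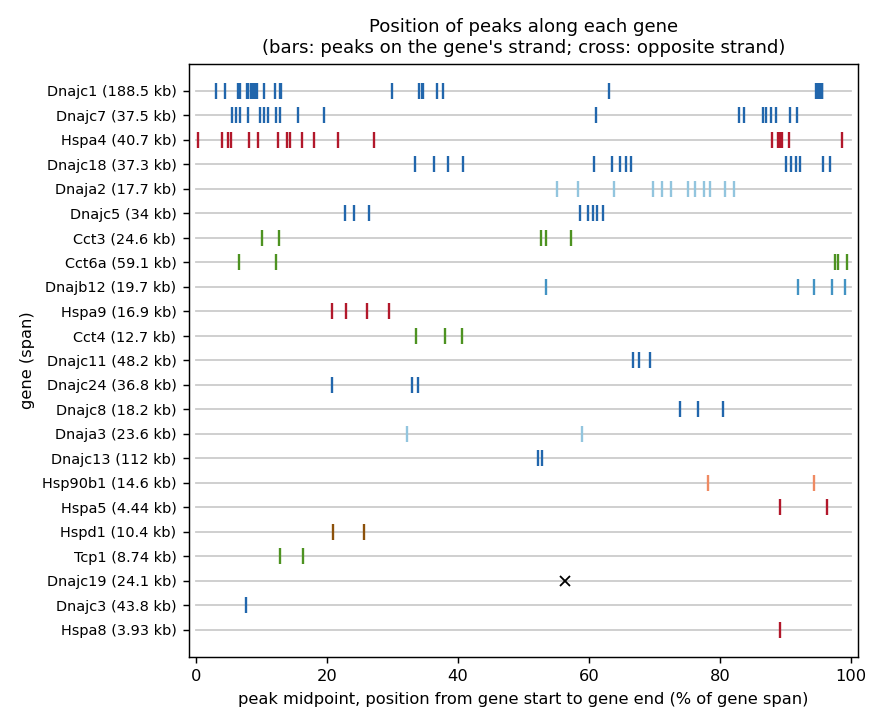
Position of each peak midpoint along its gene (horizontal axis, % of the gene span from start to end) for the 23 genes with a peak, with the span of each gene in brackets. Bars are peaks on the gene's strand and the cross is the single Dnajc19 peak on the opposite strand. Dnajc1, Dnajc7 and Hspa4 show groups at both ends, Dnaja2 has 1 group past the middle, and for Dnajc18, Dnajc5, Hspa9, Cct4, Dnajc11 and Hspa8 the strand of the peaks stands for that of the gene.

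Neighbouring peaks of a gene were close together. The median distance between midpoints was 510 bases in the chaperone genes (126 distances, middle part 304.5 to 1155 bases), against 490 bases in all autosomal protein-coding genes (37183 distances, 293 to 1203). Distances under 500 bases made up 49.2% and 50.8%, and distances above 10 kb 5.56% and 6.17%. The peaks were also of ordinary length, with a median of 159 bases (48 to 452) against 153 bases in the whole list, and 14 of 149 (9.40%) were 300 bases or longer against 7.22%. The 14 came from 7 genes, among them Dnajc1 (5), Dnajb12 (3) and Hspa9 (2). In spacing and length the chaperone genes therefore lay close to the rest of the list.

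**Figure D5:**
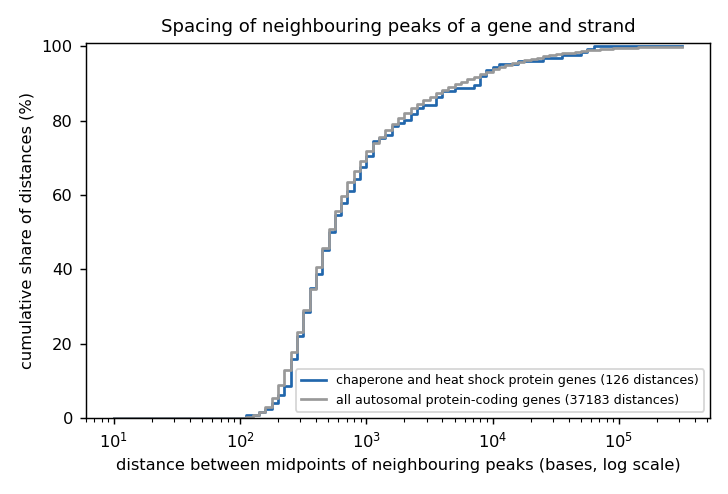
Cumulative share (vertical axis, %) of distances from each peak to the next in its gene, midpoint to midpoint (horizontal axis, bases, log scale) for chaperone and heat shock protein genes (blue, 126 distances) and all autosomal protein-coding genes (grey, 37183 distances). The curves lie close together, with medians of 510 and 490 bases.

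The promoters of the heat-inducible genes among them are known for the heat shock element, to which heat shock factor 1 binds. RefSeq promoter windows (GRCm38.p6, from 250 bases before a start site to 50 after it) were found for 69 of the 84 genes, 88 windows in all. No peak overlapped any of them. Only the last 50 bases of a window lie after the start site, so few peaks on RNA could fall there. No such count over the windows of all genes is given here. The element repeats the unit GAA in alternating orientation. The windows were searched for pairs of such units, GAANNTTC and TTCNNGAA. Each pair reads the same on both strands and may overlap the other. Either pair was present in 22 of 88 chaperone windows (25%), against 2765 of 20085 windows of all autosomal protein-coding genes (13.8%). Split by peaks, it was present in 2 of 19 windows of chaperone genes with a peak (10.5%) and in 20 of 69 windows of those without (29.0%). The 2 were windows of Cct6a and Hspd1. At least 3 pairs occurred in 4 chaperone windows, those of Hspd1, Hspe1 and Hsph1 (2 windows), which is 4.55% against 0.229% of all. These 4 windows are not separate sites. The Hspd1 and Hspe1 windows hold the same run of letters, read on opposite strands, and the 2 Hsph1 windows overlap and hold the same matches. That run also counts once among windows with a peak (Hspd1) and once among those without (Hspe1). A match is a run of letters and not a binding site, and windows of 1 gene or of neighbouring genes can overlap.

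The windows below show both kinds, 5′ to 3′ on the gene's strand, with the matching letters in capitals. Hspa4, with 19 peaks and the peak closest to a start, has neither pair (chr11:53300430-53300729, minus strand). Hspd1 (chr1:55087883-55088182, minus strand) has 2 peaks and 3 pairs, which overlap in 1 run. Hsph1 (chr5:149636266-149636565, minus strand), Hspb1 (chr5:135887669-135887968, plus strand), Hspa1a (chr17:34972107-34972406, minus strand) and Hspa1b (chr17:34959189-34959488, minus strand) have such pairs and no peak. The windows of Hspa1a and Hspa1b show how alike the copies are.
Hspa4: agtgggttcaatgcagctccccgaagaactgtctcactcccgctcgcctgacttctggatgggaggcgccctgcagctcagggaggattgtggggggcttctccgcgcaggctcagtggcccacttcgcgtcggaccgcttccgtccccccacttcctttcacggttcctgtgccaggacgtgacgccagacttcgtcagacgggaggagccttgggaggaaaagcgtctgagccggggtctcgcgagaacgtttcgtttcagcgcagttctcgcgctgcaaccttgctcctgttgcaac
Hspd1: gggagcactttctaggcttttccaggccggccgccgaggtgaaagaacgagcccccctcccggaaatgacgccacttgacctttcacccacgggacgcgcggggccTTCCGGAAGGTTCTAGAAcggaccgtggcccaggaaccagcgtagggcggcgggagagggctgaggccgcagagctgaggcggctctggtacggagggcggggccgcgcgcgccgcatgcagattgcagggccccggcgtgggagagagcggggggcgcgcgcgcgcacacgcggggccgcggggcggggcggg
Hsph1: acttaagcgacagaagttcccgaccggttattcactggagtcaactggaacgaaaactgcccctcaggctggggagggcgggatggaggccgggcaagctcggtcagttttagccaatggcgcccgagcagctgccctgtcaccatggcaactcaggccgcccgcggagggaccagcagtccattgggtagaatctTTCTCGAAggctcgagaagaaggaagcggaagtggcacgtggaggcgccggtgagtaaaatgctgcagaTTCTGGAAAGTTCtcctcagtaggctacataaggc
Hspb1: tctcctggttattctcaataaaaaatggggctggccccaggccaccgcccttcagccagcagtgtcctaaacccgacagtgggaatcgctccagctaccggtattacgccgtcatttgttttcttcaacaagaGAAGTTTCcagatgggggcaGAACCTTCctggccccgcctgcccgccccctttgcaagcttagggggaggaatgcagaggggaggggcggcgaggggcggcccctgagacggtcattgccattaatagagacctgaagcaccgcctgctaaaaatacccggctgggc
Hspa1a: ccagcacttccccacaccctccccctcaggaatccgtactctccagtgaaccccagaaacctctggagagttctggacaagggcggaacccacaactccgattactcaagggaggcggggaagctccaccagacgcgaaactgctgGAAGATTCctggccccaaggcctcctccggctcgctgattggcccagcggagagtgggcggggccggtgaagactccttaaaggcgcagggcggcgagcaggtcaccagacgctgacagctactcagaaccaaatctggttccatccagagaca
Hspa1b: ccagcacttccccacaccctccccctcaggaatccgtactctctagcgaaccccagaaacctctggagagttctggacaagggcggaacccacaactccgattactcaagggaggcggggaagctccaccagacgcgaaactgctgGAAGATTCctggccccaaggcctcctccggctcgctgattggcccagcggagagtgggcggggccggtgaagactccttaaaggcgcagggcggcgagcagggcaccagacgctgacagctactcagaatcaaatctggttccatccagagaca

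Co-chaperones and other folding factors outside the naming rule were counted in the same way. Of 39 such genes, 14 had a peak (35.9%), beside the 19.4% of all autosomal protein-coding genes, and they held 95 peaks. The most were in Canx (25), the membrane chaperone of glycoproteins in the endoplasmic reticulum, Ptges3 (17), the Hsp90 cofactor p23, Pdia3 (13), a disulfide isomerase, and Sec63 (11), a J-domain protein of the translocon. Trap1, the mitochondrial Hsp90, had 7 and Stip1, which links Hsp70 to Hsp90, had 6. Calr, St13 and Sugt1 had 3 each, Pfdn2 and Pdia4 2 each, and Hsf1, Fkbp5 and Sil1 1 each. Hsf1 encodes the heat shock factor itself. Hyou1, the Bag genes Bag1 to Bag6 and the prefoldin genes Pfdn1, Pfdn4, Pfdn5 and Pfdn6 had 0.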

How the data were processed

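The study's 4 FLASH libraries, grouped by sample title into DHX9 antibody (2) and IgG (2), were represented by 1 peak list. Per the file itself, the authors called the peaks with PEAKachu, and each deposited line gave a chromosome, start, end and strand (1-based). The submitters' processing notes name Bowtie2 2.2.6 and the builds hg19 and mm10, and positions were read as mm10. No source used here gives the caller's version, threshold, use of IgG or treatment of multiply mapped reads, or the depth of each library, so no error could be computed and a peak holds no count.

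Gene spans and biotypes came from RefSeq (GRCm38.p6), and gene strands and start sites from its promoter table. Where that table had no entry, the strand of the peaks was used. A peak belonged to each gene whose span held its midpoint. Density is peaks per kb of span, distances run between midpoints of neighbouring peaks of 1 gene and strand, and groups were split at gaps over 3 kb. Tcp1 was read as that gene alone. Counting was done in Python 3.11.15 with pandas 2.3.3 and numpy 2.4.6, and tested on simulated peaks. All genes with a peak are named, and those with 10 or more are described at length. Promoters were picked for printing with their counts of GAA pairs and of peaks in view. A gene of the neural progenitor list is not reported here. The genes and lists were chosen with earlier results of these data known.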

Additional observations from a re-analysis of the deposited data

How the results depend on the processing

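Of 30 recomputed values, 27 stayed within 1.5 times the reported value and 3 moved further. Some of the 27 could not have moved. All 149 peaks lay on the majority strand of their gene, so dropping peaks or merging those of 1 strand must again give 100%. The share of peaks in no other gene (87.9%) could not rise by 1.5 times. The count of 27 is therefore not a measure of stability. The number of chaperone genes with a peak (23) was 14 when at least 3 peaks were required, and ranged from 18 to 24 under the other alternatives. The number of peaks (149) was 77 when peaks shorter than the list's median were dropped, which removes peaks by construction, and 54 without the 5 genes with 10 or more peaks (Dnajc1, Dnajc7, Hspa4, Dnajc18 and Dnaja2). Under the remaining alternatives run for that number, it ranged from 131 (peaks in no other gene) to 150 (all symbols that start with Tcp1, which adds 1 peak). Median spacing ranged from 510 to 611 bases, the highest with peaks merged at gaps of at most 50 bases. The reading of Tcp1 and the omission of the 5 genes were chosen after seeing the data. Restricting to peaks in no other gene gives no value for the share of such peaks. No paired analysis was possible because the deposited list has no column per library, and for the same reason no replicate could be left out. Depth, which limits what can be called, is unknown.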
